A study of Homo sapiens with 3 samples.

Results

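HRAS, NRAS, ARAF, BRAF, MAP2K1, MAP2K2 and MAPK3 encode the RAS, RAF, MEK and ERK isoforms described here, and were taken by gene symbol: 7 of the 15625 genes in the expression table. They fall into 4 tiers of the cascade, with 2 RAS genes, 2 RAF genes, 2 MEK genes and 1 ERK gene; other isoforms of these tiers were not analysed here. The measurements are RNA-seq of polyadenylated RNA from HCT116, a human colorectal cancer cell line, with 1 library given a control shRNA (sh_control) and 2 libraries given shRNA against circRAPGEF5, a circular RNA (sh_circRAPGEF5, libraries 1 and 2). All 3 libraries were harvested 36 or 48 h after transfection, the labels give no time per library, and each carries the genotype label MT, which is not explained. The labels also do not say whether the knockdown libraries were separate hairpins, cultures or repeats. The p-values below therefore cover no spread beyond these 3 libraries, and those of limma draw on the spread pooled over all genes tested. The series title asks how circRAPGEF5 bears on RAS/RAF/MEK/ERK signaling, and the comparison here is of the transcripts that encode the cascade itself.

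RAS proteins are small GTPases at the plasma membrane that switch on when they are loaded with GTP downstream of growth factor receptors. Active RAS recruits RAF kinases, which phosphorylate the kinases MEK1 and MEK2, which in turn phosphorylate ERK, and ERK then phosphorylates cytoplasmic and nuclear proteins that drive growth. The cascade is regulated mainly at the level of GTP loading and phosphorylation, which RNA-seq does not measure, and it is a frequent site of activating mutations in colorectal cancer.

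Expression is given as FPKM, fragments scaled to gene length and library size, which allows levels of different genes to be set side by side per unit length. Whole reads could be recovered from the ratios of the values up to a common factor per gene. The control library held at least 14632390 such reads, knockdown library 1 at least 14832142 and knockdown library 2 at least 15758794; depths relative to the control were 1.01 and 1.07. The circular RNA itself was not analysed here, and its linear host gene RAPGEF5, listed at 1.98 FPKM in the control against 1.33 and 2.73, does not check its knockdown. Of the 10 markers of colorectal epithelium, 6 passed the filter on low values, with KRT8 at 1031 to 1694 FPKM and EPCAM at 170.0 to 191, while CDH17 and VIL1, markers of differentiated intestinal cells, were at or below 0.0164 (these 4 were chosen after their values were seen). Summed fibroblast markers were at 14.04 FPKM in the control against 4.71 and 8.49, nearly all from COL1A1. Summed leukocyte markers were at 2.15 against 3.669 and 8.200, mostly from CD68, with the defining marker PTPRC at 0 in the control and in library 1. Endothelial markers summed to at most 0.216. The part of these markers in the results below was not tested.

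HRAS (Entrez 3265), the founding RAS GTPase, lies on the minus strand of chromosome 11 at 532242 to 535576 in GRCh38. NRAS (Entrez 4893), a RAS GTPase first found in neuroblastoma, lies on the minus strand of chromosome 1 at 114704469 to 114716771. Both RAS genes were higher in both knockdown libraries, and the sequence before the start of HRAS is shown as that of the RAS gene whose window lies outside annotated exons. These are the 250 bases before the RefSeq start (GRCh38.p14, chr11:535577-535826, minus strand), with matches to the GC box GGGCGG, the CCAAT box CCAAT and the ETS motif CCGGAAG in capitals, on either strand.
HRAS: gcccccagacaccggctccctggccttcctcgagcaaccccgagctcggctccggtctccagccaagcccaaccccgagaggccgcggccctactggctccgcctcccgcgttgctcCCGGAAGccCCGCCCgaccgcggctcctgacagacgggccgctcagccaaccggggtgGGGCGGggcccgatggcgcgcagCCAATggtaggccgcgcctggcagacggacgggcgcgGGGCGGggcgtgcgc
The HRAS window was 77.2% G and C, higher than 93.2% of the 35116 RefSeq promoter windows of that length, and held 3 GC boxes, 1 CCAAT box and 1 ETS motif. The NRAS window before its RefSeq start, which partly overlaps annotated exons and is therefore not printed, was 54.4% G and C, below the median of 58.0%. It held 2 GC boxes and 1 E-box (CACGTG). Among all windows, 42.6% held a GC box, 32.0% a CCAAT box, 8.52% the ETS motif and 6.34% the E-box. The TATA box TATAAA, found in 10.7% of windows, was in none of the 9 windows that RefSeq gives for the 7 genes. GC boxes also stood in the window of MAPK3 (6) and in neither RAF gene's window. MAP2K1 had 3 in its window from 66386662 and 0 in that from 66401629. MAP2K2 had 2 in its window from 4124123 and 0 in that from 4103207. These matches describe the letters only.

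In bulk RNA, fewer cells that carry a transcript and less transcript per cell cannot be told apart. HRAS was at 32.04 FPKM in the control, against 53.2 in library 1 and 55.8 in library 2. Both knockdown libraries lay above the control and close to each other, at 54.5 ± 1.80 FPKM (SD, n = 2). Behind these values were at least 658, 1108 and 1231 reads, which gave ratios to the control of 1.66 (95% interval 1.51 to 1.83) and 1.74 (1.58 to 1.92). These intervals, from exact Clopper-Pearson limits on reads, cover counting error only and not the spread between cultures. On the scale of FPKM + 1, used here and below, the mean log2 fold change was 0.75 ± 0.39 (SE; limma adjusted p 0.752).

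NRAS was at 12.7 FPKM in the control, against 42.1 in library 1 and 21.1 in library 2. Both knockdown libraries again lay above the control, but library 1 was 1.99 times library 2 (counting interval 1.87 to 2.12). With at least 892, 3006 and 1601 reads, the ratios to the control were 3.32 (3.08 to 3.59) and 1.67 (1.54 to 1.81). The mean log2 fold change of 1.18 ± 0.46 (SE) was higher than that of 98.8% of the 11216 genes tested. It averages libraries that differed by 0.96 on the log2 scale (library 1 minus library 2). That difference was larger in size than for 90.4% of genes with a mean level within 2-fold of that of NRAS. NRAS had an unadjusted p of 0.0264 and did not pass limma's test over all genes (adjusted p 0.628).

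ARAF (Entrez 369, plus strand of chromosome X, 47561205 to 47571908) encodes the RAF kinase with the weakest kinase activity of its family. It was at 14.5 FPKM in the control, 13.4 in library 1 and 10.4 in library 2, with at least 710, 668 and 549 reads. Both knockdown libraries lay below the control, with library 1 within counting error of it (ratio 0.928, 0.834 to 1.03). The library 2 ratio was 0.719 (0.642 to 0.805). Over both libraries the log2 fold change was -0.27 ± 0.42 (SE; limma adjusted p 0.933).

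BRAF (Entrez 673, minus strand of chromosome 7, 140713328 to 140924929) encodes the RAF kinase with the highest activity towards MEK and is a recurrent oncogene. It was at 3.25 FPKM in the control, 5.10 in library 1 and 5.54 in library 2, from at least 877, 1395 and 1607 reads. The knockdown libraries lay above the control and near each other, at 5.32 ± 0.311 FPKM (SD, n = 2), with ratios of 1.57 (1.44 to 1.71) and 1.70 (1.57 to 1.85). Their mean log2 fold change was 0.57 ± 0.43 (SE; limma adjusted p 0.839). Among all genes tested 89.6% had a lower fold change, and among 3889 genes with a mean level within 2-fold of that of BRAF 94.1% did.

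MAP2K1 (Entrez 5604, plus strand of chromosome 15, 66386912 to 66491544) encodes MEK1. It was at 14.4 FPKM in the control, 12.7 in library 1 and 25.3 in library 2, with at least 905, 812 and 1716 reads. Library 1 lay below and library 2 above the control, at ratios of 0.885 (0.804 to 0.974) and 1.76 (1.63 to 1.91). The difference between the knockdown libraries, -0.94 on the log2 scale as library 1 minus library 2, was larger in size than that of 89.8% of genes of similar level. The mean log2 fold change of 0.31 ± 0.47 (SE, limma adjusted p 0.933) therefore stands for neither library.

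MAP2K2 (Entrez 5605, minus strand of chromosome 19, 4090321 to 4124122) encodes MEK2. It was at 43.5 FPKM in the control, 42.1 in library 1 and 52.2 in library 2, with at least 1893, 1855 and 2441 reads. Library 1 was within counting error of the control (ratio 0.967, 0.906 to 1.03), and library 2 was at 1.20 (1.13 to 1.27). The mean log2 fold change was 0.10 ± 0.40 (SE, limma adjusted p 0.981) and turned to -0.05 with quantile normalization.

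MAPK3 (Entrez 5595, minus strand of chromosome 16, 30114105 to 30123220) encodes ERK1, the last kinase of the cascade. It was at 28.7 FPKM in the control, 15.6 in library 1 and 25.4 in library 2. Both knockdown libraries lay below the control, at ratios of 0.544 (0.431 to 0.683) and 0.883 (0.726 to 1.07). Averaged over both, the log2 fold change was -0.51 ± 0.43 (SE; limma adjusted p 0.862). The smallest whole reads for MAPK3, 216, 119 and 205, imply a gene length of 0.460 kb, below its shortest annotated coding transcript of 0.997 kb. Its reads may therefore be a multiple of these and its counting intervals narrower than printed.

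**Figure D1:**
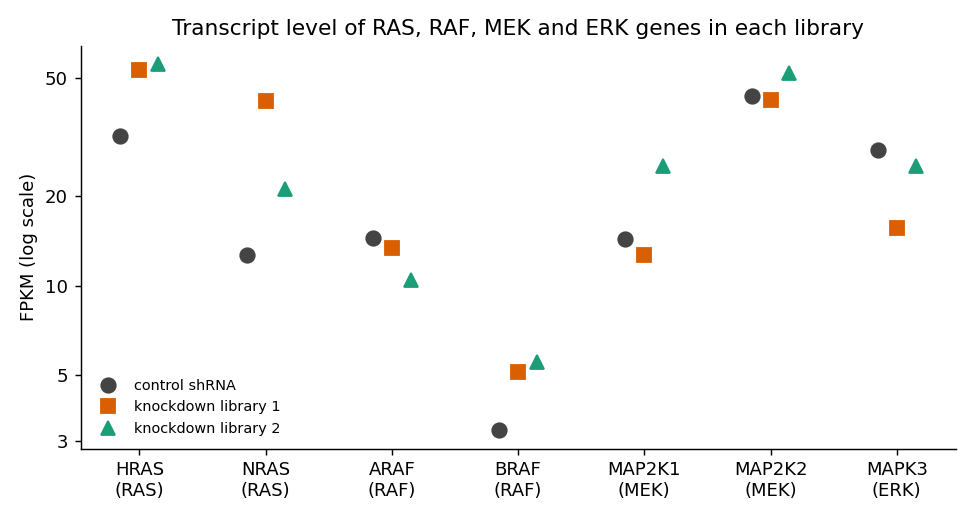
FPKM (log axis) of the 7 genes in each of the 3 libraries, 1 point per library. HRAS and BRAF show both knockdown points above the control and close together, NRAS shows them above but apart (42.1 and 21.1), and MAP2K1 shows them on either side of the control.

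**Figure D2:**
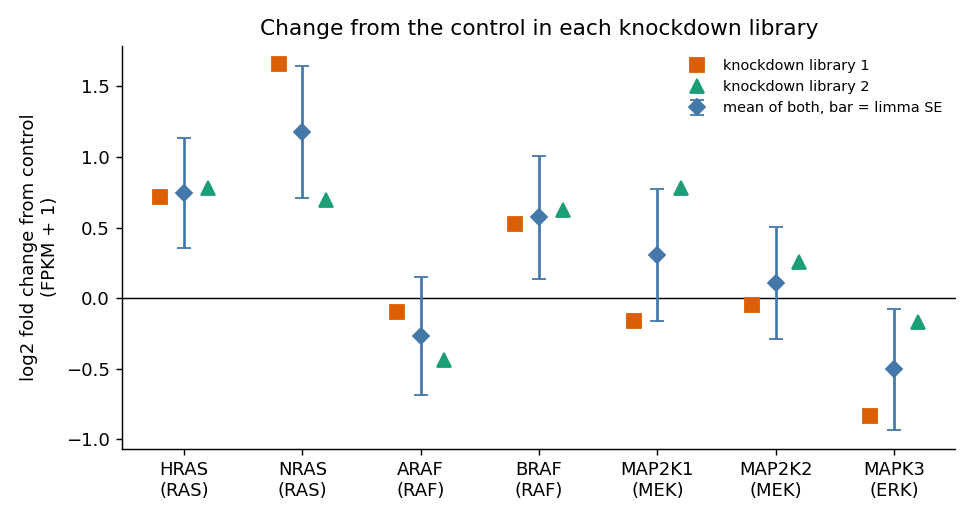
Log2 fold change from the control (FPKM + 1) in each knockdown library, with the mean of both and its limma SE (bars). HRAS, NRAS and BRAF lie above 0 in both libraries, ARAF and MAPK3 below 0 in both, and MAP2K1 and MAP2K2 on opposite sides (MAP2K2 was above 0 in both with median-ratio rescaling).

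Of the 7 genes, 3 were higher than the control in both knockdown libraries (HRAS, NRAS and BRAF), where 31.7% of all genes tested were. A further 2 were lower in both (ARAF and MAPK3), against 37.6% of all genes tested, and 2 lay on opposite sides (MAP2K1 and MAP2K2), against 30.7%. With median-ratio rescaling MAP2K2 was also higher in both, which makes 4. These shares are a description of 7 genes and single out none of them. Limma called 0 of the 7 at an adjusted p under 0.05, against 0.0178% of genes tested, and 1 (NRAS) had an unadjusted p under 0.05, against 7.07%. Their adjusted p-values ran from 0.628 to 0.981. The median log2 fold change of the 7 was 0.31 beside -0.05 for all genes tested. With 1 control library, limma had 1 residual degree of freedom and assumed that the control varies like the knockdown libraries. Its variance for each gene came mostly from a prior over all genes tested, with 10.9 degrees of freedom.

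**Figure D3:**
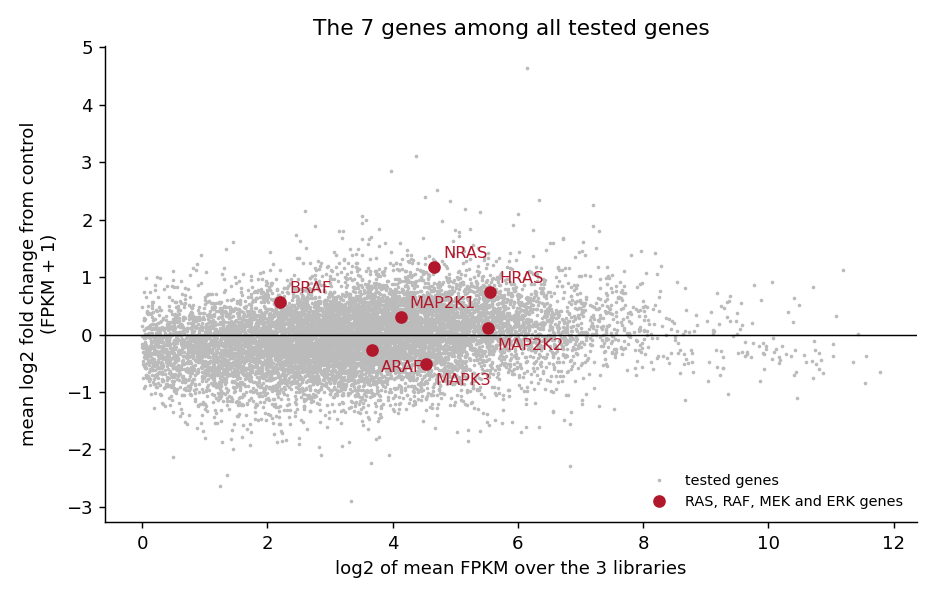
Mean log2 fold change from the control (FPKM + 1) against the log2 of mean FPKM for the 11216 genes tested (grey), with the 7 RAS, RAF, MEK and ERK genes in red. NRAS, at 1.18, is the highest of the 7, and all 7 lie within the cloud of tested genes.

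Within the RAS tier, HRAS was the more abundant transcript per length in every library. The ratio of NRAS to HRAS was 0.395 in the control (counting interval 0.357 to 0.437), 0.790 in library 1 (0.738 to 0.847) and 0.379 in library 2 (0.352 to 0.408). NRAS thus made up 28.3% of the summed FPKM of both genes in the control, 44.1% in library 1 and 27.5% in library 2. Relative to the control the ratio was 2.001 times as large in library 1 (1.77 to 2.26) and 0.959 times in library 2 (0.847 to 1.09), so the shift was in library 1 alone of the 2. The sum of both transcripts was 44.7 FPKM in the control, 95.3 in library 1 and 76.9 in library 2.

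Within the RAF tier, the isoforms lay on opposite sides of the control in both libraries, BRAF above and ARAF below. In library 1, however, ARAF was within counting error of the control (ratio 0.928, 0.834 to 1.03). The ratio of BRAF to ARAF was 0.225 in the control (0.203 to 0.248), 0.380 in library 1 (0.346 to 0.416) and 0.532 in library 2 (0.483 to 0.586). Relative to the control it was 1.69 times as large in library 1 (1.48 to 1.94) and 2.37 times in library 2 (2.06 to 2.72). The change of the log2 ratio averaged 0.84, with an SD of 0.31 between the knockdown libraries. An exact two-sided permutation of the 3 libraries gave p = 0.33, the smallest it can give with 1 library against 2. The summed FPKM of both genes stayed between 15.9 and 18.5 in the 3 libraries. This sum rests on the gene lengths behind the FPKM values, described below for BRAF, and was not recomputed with other lengths.

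Within the MEK tier, MAP2K2 exceeded MAP2K1 in every library. The ratio of MAP2K1 to MAP2K2 was 0.330 in the control (0.305 to 0.357), 0.302 in library 1 (0.278 to 0.328) and 0.485 in library 2 (0.456 to 0.516). The ratio in library 2 was 1.47 times that of the control (1.33 to 1.63), and in library 1 0.916 times (0.817 to 1.03). The summed FPKM was 57.9 in the control, 54.8 in library 1 and 77.6 in library 2. For the RAS and MEK tiers the exact permutation p of the change was 1.0, and each change was carried by a different knockdown library.

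**Figure D4:**
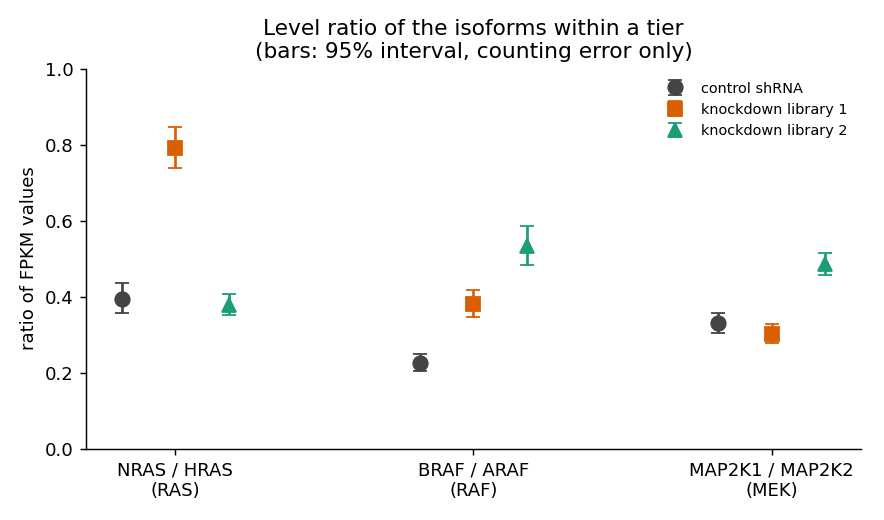
Ratio of FPKM values of the 2 isoforms of the RAS, RAF and MEK tiers in each library, with 95% intervals that cover counting error only. The RAS ratio stands apart in knockdown library 1 (0.790), the MEK ratio in knockdown library 2 (0.485), and the RAF ratio is above the control in both (0.380 and 0.532).

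Across tiers, the order of levels in the control was MAP2K2, HRAS, MAPK3, ARAF, MAP2K1, NRAS and BRAF. ARAF and MAP2K1 did not differ beyond counting error there (ratio 1.01, 0.913 to 1.11). HRAS was 1.11 times MAPK3, and since the reads of MAPK3 may be a multiple of the smallest ones, whether these differ beyond counting error is not known. NRAS stood at rank 6 in the control, rank 3 in library 1, where it was level with MAP2K2 (MAP2K2 to NRAS 1.001, 0.945 to 1.06), and rank 5 in library 2. By FPKM, HRAS was first in both knockdown libraries, though in library 2 its ratio to MAP2K2 was 1.07 (0.997 to 1.14). BRAF was last in all 3 libraries.

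The order across tiers, and with it the place of BRAF, rests on the length assigned to each gene. In the control the smallest whole reads were 877 for BRAF and 710 for ARAF. If these are the true reads, the lower FPKM of BRAF comes from a larger length behind it. Each gene's reads may be a multiple of the smallest ones, and the lengths and ratios per kilobase below take the smallest ones as they stand. On a scale set by 87 genes with a single annotated transcript, these reads imply lengths of 16.5 kb for BRAF and 3.01 kb for ARAF, while the longest coding transcripts in the GENCODE v29 basic set are 9.58 and 2.50 kb. Per kilobase of the longest coding transcript, the ratio of BRAF to ARAF in the control was 0.323, and per kilobase of the shortest it was 1.33, which turns the order. The lower level of NRAS than HRAS and of MAP2K1 than MAP2K2 in the control held with both lengths, at ratios from 0.272 to 0.376 and from 0.243 to 0.491. For MAP2K2 the implied length was 2.66 kb, above its longest coding transcript of 1.73 kb, while for HRAS it was 1.26 kb beside 1.23 kb. The places of HRAS and NRAS relative to MAP2K2 therefore hold for the deposited FPKM only, and were not recomputed with transcript lengths. FPKM ratios of 1 gene between libraries do not depend on the assigned length. Log2 fold changes on FPKM + 1 and the filter on mean FPKM do. With 0.1 or 5 added to the FPKM in place of 1, the mean log2 fold change of BRAF was 0.69 or 0.32, beside 0.57.

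Genes next to the members were read for the same libraries. RNH1, the ribonuclease inhibitor gene on one side of HRAS, was at 36.3 FPKM against 56.2 and 51.5, and LMNTD2 on the other side at 3.16 against 1.53 and 1.93. Both neighbours of MAPK3 were lower in both libraries, GDPD3 at 6.20 FPKM against 3.26 and 3.07 and CORO1A, an actin-binding protein gene, at 2.59 against 1.34 and 0.898. Of the genes that flank BRAF, MRPS33 was at 6.49 against 8.29 and 9.33, and NDUFB2, a complex I subunit gene that overlaps BRAF on the opposite strand in GENCODE v29, at 75.2 against 45.8 and 100.1. None of these neighbours passed limma's test, with adjusted p from 0.765 to 0.979. SNAPC5 overlaps the end of MAP2K1 on the opposite strand and was at 7.33 FPKM against 9.34 and 4.98, the reverse order of MAP2K1. TIPIN, a replication fork gene that starts 194 bases from MAP2K1 on the opposite strand, was at 6.68 FPKM against 9.87 and 9.38. The strand setting of the authors' counting is not given in the sources used here, so reads in such overlaps could not be told apart if strand was ignored. SYN1, which overlaps ARAF by a few bases on the opposite strand, was at no more than 0.445 FPKM. ZNF41, the other neighbour of ARAF, was at 3.76 against 3.01 and 3.22, ZBTB7A next to MAP2K2 at 11.5 against 14.5 and 12.0, and AMPD1 and CREB3L3, next to NRAS and MAP2K2, at no more than 0.211.

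The rest of the pathway was read through lists by role, each given as counts beside the 31.7% of all genes that were higher and the 37.6% that were lower in both libraries. Limma called 0 genes in each of the 8 lists, against 0.0178% of all genes tested. An unadjusted limma p under 0.05 was found for 7.07% of all genes tested and for no more than 2 genes in each list but 1. The exception, with 6 of 15 genes, was the list of MEK-ERK target genes, which was chosen with earlier results of these data known. Of 9 tested adaptors and exchange factors, which link receptors to RAS, 3 were higher and 4 lower in both, with a median log2 fold change of 0.10. The receptor substrate FRS2 was at 3.94 FPKM against 10.4 and 6.79, the adaptor GRB2 at 80.6 against 38.9 and 64.0, and the exchange factor SOS2 at 8.13 against 4.52 and 4.58. Of 8 tested GTPase-activating proteins, which switch RAS off, 1 was higher and 4 were lower in both (median -0.17). RASA3 was at 6.18 FPKM against 8.06 and 10.1, and RASAL2 at 3.53 against 2.52 and 3.11.

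Of 9 tested genes for RAS processing and turnover, which attach lipids to RAS or remove it, 3 were higher and 2 lower in both (median 0.08). The methyltransferase ICMT, which modifies the RAS carboxyl end, was at 35.7 FPKM against 29.04 and 23.95. LYPLA1, which removes palmitate, was at 28.2 against 9.27 and 57.6, on opposite sides of the control. All 16 scaffolds and modulators of RAF, MEK and ERK passed the filter, 7 higher and 4 lower in both (median 0.18). The chaperone HSP90AB1, which stabilizes RAF kinases, was at 1092 FPKM against 1582 and 2376, the prohibitin gene PHB at 157 against 260.5 and 299.6, and the arrestin ARRB2 at 40.3 against 22.0 and 24.5.

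Of 6 tested kinases that ERK activates, 2 were higher and 3 lower in both (median -0.21). The ribosomal S6 kinase RPS6KA2 was at 4.73 FPKM against 1.21 and 2.01, with an unadjusted limma p of 0.0258 and an adjusted p of 0.628. MKNK2, which phosphorylates the cap-binding factor eIF4E, was at 80.0 against 59.6 and 40.4. Among 12 tested kinases of the other MAP kinase modules, 2 were higher and 3 lower in both (median 0.03). The 2 higher genes encode stress-pathway relatives of MEK: MAP2K3, which activates p38, was at 25.04 FPKM against 77.2 and 54.0 (limma adjusted p 0.521), and MAP2K4, which activates JNK, at 13.2 against 32.3 and 21.4 (0.706). Their log2 fold changes of 1.33 and 0.94 stand beside 0.31 for MAP2K1 and 0.10 for MAP2K2, and the differences were not tested. Of 9 tested RAS relatives, 3 were higher and 2 lower in both (median 0.04). RAP1B, a RAP GTPase, was at 5.24 FPKM against 7.96 and 8.37, and RHEB, the GTPase that activates mTOR, at 26.5 against 22.5 and 16.2. Downstream, 13 of 15 MEK-ERK target genes were higher in both libraries (median 0.69), but this list was chosen with earlier results of these data known and is no independent evidence. It holds DUSP4, an ERK phosphatase, at 9.93 FPKM against 53.0 and 44.1, and FOSL1, an AP-1 subunit, at 19.0 against 163 and 61.2.

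**Figure D5:**
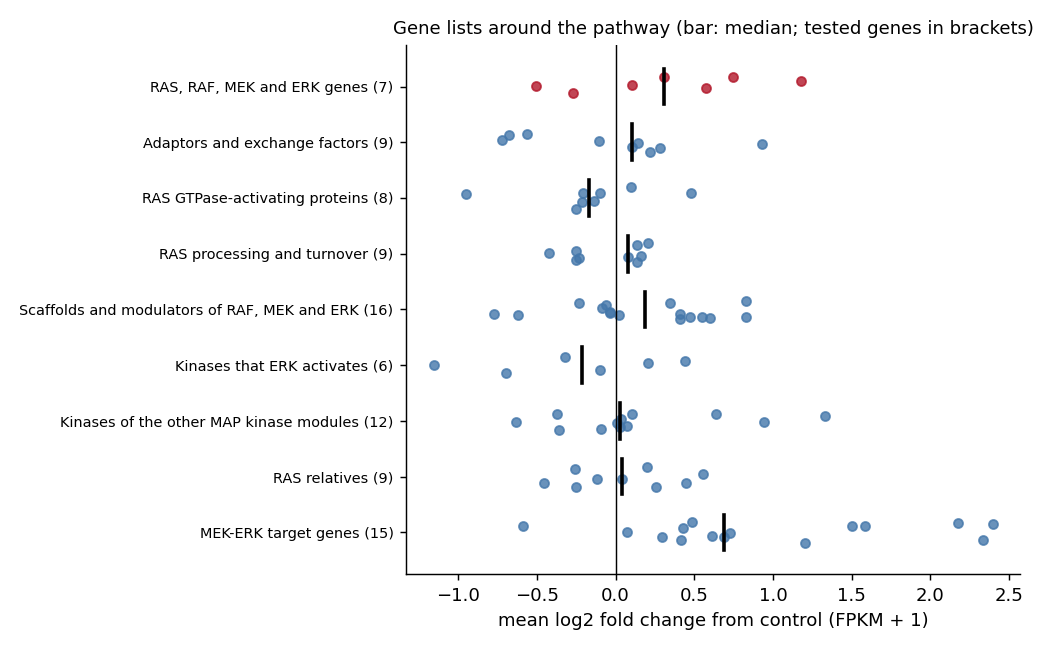
Mean log2 fold change from the control (FPKM + 1) of each tested gene in the RAS, RAF, MEK and ERK group (red) and in 8 lists of genes around the pathway (blue), with medians as black bars. The medians run from -0.21 (kinases that ERK activates) to 0.69 (MEK-ERK target genes), with 0.31 for the 7 cascade genes.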

How the data were processed

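RNA was sequenced from 3 HCT116 libraries made with a stranded, poly(A)-selecting kit, per the labels' protocols. The authors deposited 1 table of FPKM values per gene. Trimmomatic, HISAT2 and GRCh38.p13 were used, per the submitters' processing notes. Not given in the sources used here: counting program, strand setting, annotation and gene lengths. Entrez numbers and pathway names are other annotation the authors deposited. From the FPKM values, log2(FPKM + 1) was tested with limma 3.58.1 (R 4.3.3, mean-variance trend, Benjamini-Hochberg adjustment over 11216 genes with a mean FPKM of at least 1, threshold 0.05), and all 7 genes passed that filter. The smallest whole reads were found from ratios of FPKM between libraries, which were whole within a relative tolerance of 1e-09 in 100.0% of genes. Both steps were tested on simulated data. Ratio intervals within a tier used the normal approximation on log ratios of reads. Coordinates and promoter windows are from RefSeq (GRCh38.p14), which held all 7 genes, and transcript lengths, strands and overlaps from GENCODE v29. Each list names up to 3 genes with the largest absolute fold change. Some genes that these rules take are not reported here. The genes, lists and rules were chosen with earlier results of these data known. Alternatives were pseudocounts of 0.1 and 5, other filters and scalings, other limma settings and single knockdown libraries.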

Additional observations from a re-analysis of the deposited data

How the results depend on the processing

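Across the alternatives, 73 of 76 values of the 7 genes kept their direction, none became a limma call, and the smallest limma adjusted p was 0.577. Other filters and limma settings leave a fold change as it is, so the directions under them were fixed in advance. The values from single knockdown libraries are the fold changes already shown for each library. The count of 73 is therefore no measure of robustness. The direction of MAP2K2 turned with quantile normalization (-0.0453). With each knockdown library left out in turn, the log2 fold change ran from -0.16 to 0.78 for MAP2K1 and from -0.0476 to 0.257 for MAP2K2, the change of the log2 ratio from -0.0841 to 0.94 for NRAS to HRAS and from -0.12 to 0.52 for MAP2K1 to MAP2K2, the number of genes higher than the control from 3 to 5 and the number lower from 2 to 4; these values carry no test. The number higher in both was 4 with median-ratio rescaling, where MAP2K2 joined, and 2 under the filter at 5 FPKM, which BRAF did not pass. With lengths of the longest coding transcript, chosen after seeing the data, the control level ratio moved to 0.323 for BRAF to ARAF and 0.243 for MAP2K1 to MAP2K2. With the shortest it moved to 0.272 for NRAS to HRAS, 1.33 for BRAF to ARAF (a turn) and 0.491 for MAP2K1 to MAP2K2. No paired analysis was possible because there is only 1 control library for 2 knockdown libraries. The reads of all 7 genes are lower limits, and the level ratios by transcript length take them as they stand. For MAPK3 they imply a length below its shortest coding transcript.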

Other observations

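For each of the 7 genes, the tested genes of similar level (mean FPKM within 2-fold) were ranked by the Euclidean distance between their 2 log2 fold changes and those of the gene. With 3 libraries sharing 1 control this is a description of likeness and nothing more. NRAS had the fewest close neighbours, with 9 of 3689 genes within 0.25, and the nearest were TMEM167A, a Golgi membrane protein gene, at 14.9998 FPKM in the control against 46.2 and 26.2 (distance 0.12), and HPCAL1, a neuronal calcium sensor gene, at 6.74 against 22.9 and 10.4 (0.13). HRAS had 146 of 2304 genes within that distance, the nearest being POLR2F, an RNA polymerase subunit gene, and NDUFA12, a complex I subunit gene, both at 0.02. For BRAF the nearest were AP4B1 and SS18L2 (152 of 3888 genes within 0.25), and for ARAF VPS13B and WASF1 (383 of 4774). MAP2K1, with 48 of 4448 genes within 0.25, was nearest to ARHGEF1, at 26.6 FPKM in the control against 23.7 and 48.1, and to SMPD2. MAP2K2 was nearest to ELP5 and MROH6 (254 of 2357), and MAPK3 to NME3 and TELO2 (94 of 3862).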
